A study of Mus musculus with 4 samples.

Results

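The genes described here encode the proteasome, and they were chosen by symbol alone. Of the 14721 genes in the deposited count table, 43 have a symbol that begins with Psma, Psmb, Psmc, Psmd or Psme and goes on with a number. Among them 41 encode subunits, dedicated assembly chaperones or activators of the proteasome. The sums and shares below are over these 41. Psmc3ip encodes a recombination protein that only shares the name, and Psme2b is a close copy of Psme2, so reads of that pair may have been split between the genes and its values are uncertain. Counts of ratios take in all 43 genes of the rule where they pass a level minimum, so Psme2b is in some of them, and the counts without it are given where it was called. By role, the 41 genes fall into 7 of the alpha ring, 4 non-catalytic genes of the beta ring, 3 constitutive catalytic genes, 3 immunoproteasome catalytic genes, 6 ATPases of the cap, 11 other cap subunits, 3 cap assembly chaperones and 4 activators. Psmb11, the thymus form of the catalytic subunit, is not among the genes of the count table.

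The study asked how CD4+ T cells that recognise a melanoma antigen come to carry CD8 in B16 tumors. Single cells were sequenced from mice bearing B16F10 melanoma that had received a single injection of cyclophosphamide (250 mg/kg) and, a day later, CD45.1 TRP1 CD4+ T cells, with tumors resected on day 11 after the transfer. TRP1 is a melanocyte protein, and the labels give the strain of all samples as RAG1- BW TRP-1 TCR. Each tissue has 1 RNA library and 1 receptor library, and all groups share the cyclophosphamide and the tumor, so no group is an untreated control, although a label field reads untreated. The labels give lymph node samples the same source and cell type as the tumor samples, and only the titles tell the tissues apart. That source names a sort for CD4+ and CD4+CD8+ cells, whereas most lymph node cells carry the authors' label Cd8.

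In the tumor library, which the title marks as transgenic and endogenous, the authors' labels used here are Tdp (2693 cells), Cd4 (2451 cells), Tcell (406 cells) and Treg (19 cells). In the lymph node library, marked as endogenous, they are Cd8 (2788 cells), Cd4 (1873 cells) and Treg (321 cells). The labels left out are lymph node Tdp with 6 cells and tumor Cd8 with 1 cell. The most frequent alpha or beta receptor chain of the tumor cells, taken here as the transgenic one, was found in 5540 of 5570 tumor cells and in 0 of 4988 lymph node cells, so tissue and receptor cannot be told apart in any comparison of tumor with lymph node. How many animals went into a library is unknown here, since the labels give no number. With 1 library per tissue there is no replicate and no test. Intervals are at 95% and cover counting error only.

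Defining markers were in keeping with most labels. Summed CD8 genes (Cd8a and Cd8b1) were at 1868 CPM (UMI counts scaled to the group's total UMIs) in tumor Tdp cells, 58.7 in tumor Cd4 cells, 1653 in lymph node Cd8 cells and 41.1 in lymph node Cd4 cells. Summed regulatory T cell markers were at 1423 CPM in lymph node Treg cells and 13.8 in lymph node Cd4 cells. CD8 genes summed to 262 CPM in the same Treg cells, above the lymph node Cd4 cells, and the part of this in the Treg values was not tested. Cd4 was at 289 CPM in tumor Tdp and 413 in tumor Cd4 cells, and at 13.0 in lymph node Cd8 and 159 in lymph node Cd4 cells. The cells labelled Tcell, like Tdp cells, held both Cd4 (340 CPM) and CD8 genes (774 CPM). Their median was 2040 UMIs per cell against 5533 in tumor Cd4 cells. The other medians ran from 4763 to 6633 UMIs. B cell markers summed to 215 to 454 CPM in the 3 lymph node groups and to 8.06 to 28.5 CPM in the tumor groups other than Treg (315 CPM), with Cd79a and Ms4a1 listed at 0 in the 4 tumor groups. In the tumor library 1768 of the 14721 genes are listed at 0 UMIs, for a reason unknown here. Melanoma markers summed to at most 1.19 CPM. The RNA libraries share 36 cell barcodes of 10558.

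The proteasome is the barrel-shaped protease that degrades ubiquitin-tagged proteins. Rings of alpha and beta subunits form its core, where the catalytic subunits encoded by Psmb5, Psmb6 and Psmb7 cut proteins, and a cap with an ATPase ring recognises, unfolds and feeds the substrates. In lymphocytes, and in many other cells under interferon, the catalytic subunits encoded by Psmb8, Psmb9 and Psmb10 replace the constitutive ones to form the immunoproteasome, which is known for making peptides that fit MHC class I. Psme1 and Psme2 encode the alpha and beta subunits of the interferon-inducible activator PA28, Psme3 its nuclear relative and Psme4 the activator PA200.

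The promoter windows of the genes on which the results turn are shown because the data concern genes that are usually described as interferon-inducible (Psme1, Psme2, Psmb8 and Psmb10) beside a constitutive catalytic gene (Psmb5). Each window runs from 250 bases before to 50 bases after the RefSeq start of the gene, on the gene's own strand, in build GRCm38.p6. Capitals mark a match to any of 3 motifs searched on both strands, GAAANNGAAA (the core of the interferon-stimulated response element), TTCNNNGAA (the core of the gamma-activated site) and TGACNNNGC (the core of the antioxidant response element). The Psme1 window is chr14:55578244-55578543 on the plus strand and that of Psme2 is chr14:55591052-55591351 on the minus strand. Psmb8 has chr17:34197945-34198244 (plus), Psmb10 has chr8:105938343-105938642 (minus) and Psmb5 has chr14:54617946-54618245 (minus).
Psme1: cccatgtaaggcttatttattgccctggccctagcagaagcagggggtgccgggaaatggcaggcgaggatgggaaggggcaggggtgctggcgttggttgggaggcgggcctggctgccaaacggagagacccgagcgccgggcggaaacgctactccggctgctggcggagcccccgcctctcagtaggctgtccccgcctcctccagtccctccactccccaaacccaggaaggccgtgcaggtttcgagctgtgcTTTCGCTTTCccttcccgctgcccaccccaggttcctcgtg
Psme2: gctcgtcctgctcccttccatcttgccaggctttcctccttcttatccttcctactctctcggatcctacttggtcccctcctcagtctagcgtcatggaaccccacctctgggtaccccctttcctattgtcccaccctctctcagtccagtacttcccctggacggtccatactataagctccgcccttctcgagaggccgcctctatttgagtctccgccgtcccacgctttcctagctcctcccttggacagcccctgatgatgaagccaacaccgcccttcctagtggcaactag
Psmb8: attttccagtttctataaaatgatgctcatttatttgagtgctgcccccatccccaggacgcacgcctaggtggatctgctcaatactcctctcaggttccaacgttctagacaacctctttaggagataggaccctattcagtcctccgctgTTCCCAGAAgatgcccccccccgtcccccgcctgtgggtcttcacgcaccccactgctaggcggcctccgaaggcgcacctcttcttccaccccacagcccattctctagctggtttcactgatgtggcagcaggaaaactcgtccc
Psmb10: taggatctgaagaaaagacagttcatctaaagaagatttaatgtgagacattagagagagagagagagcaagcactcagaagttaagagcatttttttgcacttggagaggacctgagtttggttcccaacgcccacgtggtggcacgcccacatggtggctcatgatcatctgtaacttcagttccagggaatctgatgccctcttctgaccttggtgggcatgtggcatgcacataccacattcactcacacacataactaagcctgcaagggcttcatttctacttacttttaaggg
Psmb5: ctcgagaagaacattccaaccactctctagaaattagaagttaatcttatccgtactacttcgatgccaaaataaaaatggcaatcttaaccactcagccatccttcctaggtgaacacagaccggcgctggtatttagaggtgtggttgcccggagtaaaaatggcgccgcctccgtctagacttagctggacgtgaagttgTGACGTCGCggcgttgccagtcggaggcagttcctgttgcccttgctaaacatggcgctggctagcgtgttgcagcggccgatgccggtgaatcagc

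RefSeq windows were found for 37 of the 43 genes. GAAANNGAAA was present for 4 of them (Psmb3, Psmd4, Psmd9 and Psme1) and in 3.44% of all 32851 windows. In Psme1 the match begins at base 10 after the start, on the minus strand. TTCNNNGAA was present for Psmb8 and Psmd2, and in 8.30% of all windows. TGACNNNGC was present for 6 genes (Psmb5, Psmb6, Psmc6, Psmd12, Psmd9 and Psme4) and in 12.4% of all windows. None of the 3 was in the printed windows of Psme2 and Psmb10, which says only that these letters are not there. A match is a description of letters and not a binding site.

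In the genome Psme1 (chr14:55578494-55581527) and Psme2 (chr14:55587440-55591101) lie 5912 bases apart with no gene wholly between them in the RefSeq table. Psmb9, Tap1, Psmb8 and Tap2 sit within 34292 bases (chr17:34182030-34216321) in the MHC. Tap1 and Tap2 encode the transporter that carries proteasome products into the endoplasmic reticulum. The starts of Psmb9 and Tap1 are 226 bases apart, so their promoter windows share 275 bases.

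The 41 genes took 0.615% of all UMIs in tumor Tdp cells (interval 0.612% to 0.619%), 0.630% in tumor Cd4 cells (0.626% to 0.634%) and 0.395% in the cells labelled Tcell (0.382% to 0.409%). In lymph node the share was 0.538% in Cd8 cells (0.534% to 0.541%), 0.507% in Cd4 cells (0.502% to 0.512%) and 0.717% in Treg cells (0.705% to 0.729%). The 19 tumor Treg cells held 0.787% (0.730% to 0.847%). Regulatory T cells thus had the highest share in each tissue, and the cells labelled Tcell the lowest of all. Ribosomal protein genes took 29.7% and 28.4% of UMIs in tumor Tdp and Cd4 cells, 44.4% and 43.7% in lymph node Cd8 and Cd4 cells and 31.9% in lymph node Treg cells. With ribosomal protein, mitochondrial and receptor genes taken out of the total, the proteasome share was 0.944% in tumor Tdp, 0.951% in tumor Cd4, 1.03% in lymph node Cd8, 0.954% in lymph node Cd4, 1.10% in lymph node Treg and 0.645% in Tcell cells. On that total tumor and lymph node Cd4 cells differed by 0.951% against 0.954%, where the full total gave 0.630% against 0.507%.

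Proteasome UMIs were found in every cell thinned to 2000 UMIs. A tumor Tdp cell then held a mean of 12.2 proteasome UMIs, a tumor Cd4 cell 12.5, a lymph node Cd8 cell 10.6, a lymph node Cd4 cell 9.95 and a lymph node Treg cell 14.4. The cells labelled Tcell held 7.54, with 192 of the 406 left out as shallower. Without thinning, the median was 40 proteasome UMIs in a Tdp cell, 34 in a tumor Cd4 cell, 7 in a Tcell cell, 33 in a lymph node Cd8 cell, 23 in a lymph node Cd4 cell and 36 in a lymph node Treg cell. The variance over the mean of the thinned values was widest in lymph node Treg cells at 2.06 and was 1.26 to 1.48 in the other 5 groups. The groups overlapped, as the middle 90% of cells reached from 6 to 19 UMIs in Tdp cells, from 5 to 17 in lymph node Cd4 cells and from 7 to 24 in lymph node Treg cells.

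**Figure D1:**
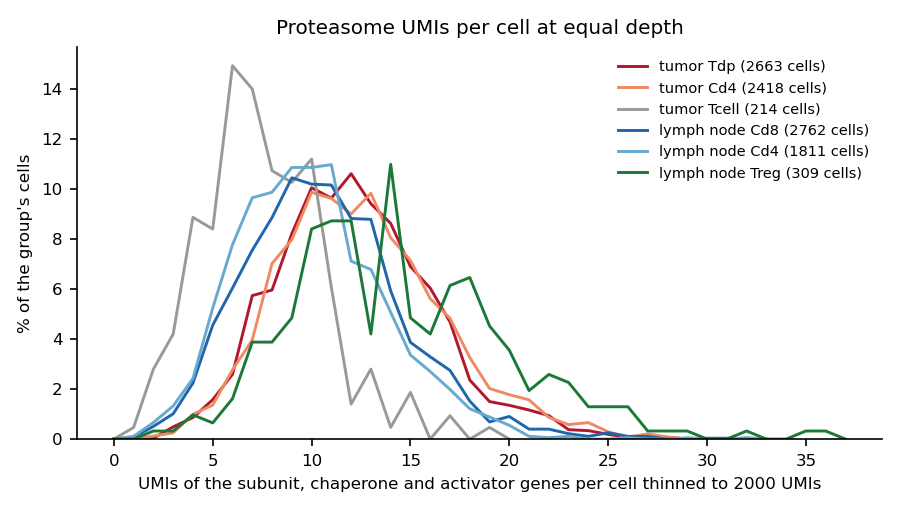
Proteasome UMIs (41 genes) per cell thinned to 2000 UMIs, as the percentage of each group's cells, with 1 line per cell label and library. The Tcell line lies farthest left (mean 7.54) and the lymph node Treg line reaches farthest right (mean 14.4).

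Levels of single genes moved within a narrow band over the 5 groups without Tcell and tumor Treg. The ratio of the highest to the lowest group had a median of 1.53-fold over the 41 genes, from 1.22-fold for Psmb4 to 2.22-fold for Psmc2, an ATPase of the cap. For the 40 of these genes among the 5583 genes that pass the level minimum in at least 1 group the median was 1.52-fold, beside 1.72-fold over all 5583. Lymph node Treg cells had the highest level for 29 of the 41 genes, tumor Cd4 cells for 9, tumor Tdp cells for 2 and lymph node Cd8 cells for 1. The lowest level of the 5 groups was in lymph node Cd8 cells for 22 genes, in lymph node Cd4 cells for 14, in tumor Tdp cells for 3 and in tumor Cd4 cells for 2. With Tcell cells added as a sixth group, 34 of the 41 genes were lowest there. Such counts of highest and lowest groups were not made over all genes. Of all genes that passed the level minimum, 77.7% were higher in lymph node Treg than in lymph node Cd4 cells by any amount. In Tcell cells 63.1% were lower than in tumor Cd4 cells by any amount.

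**Figure D2:**
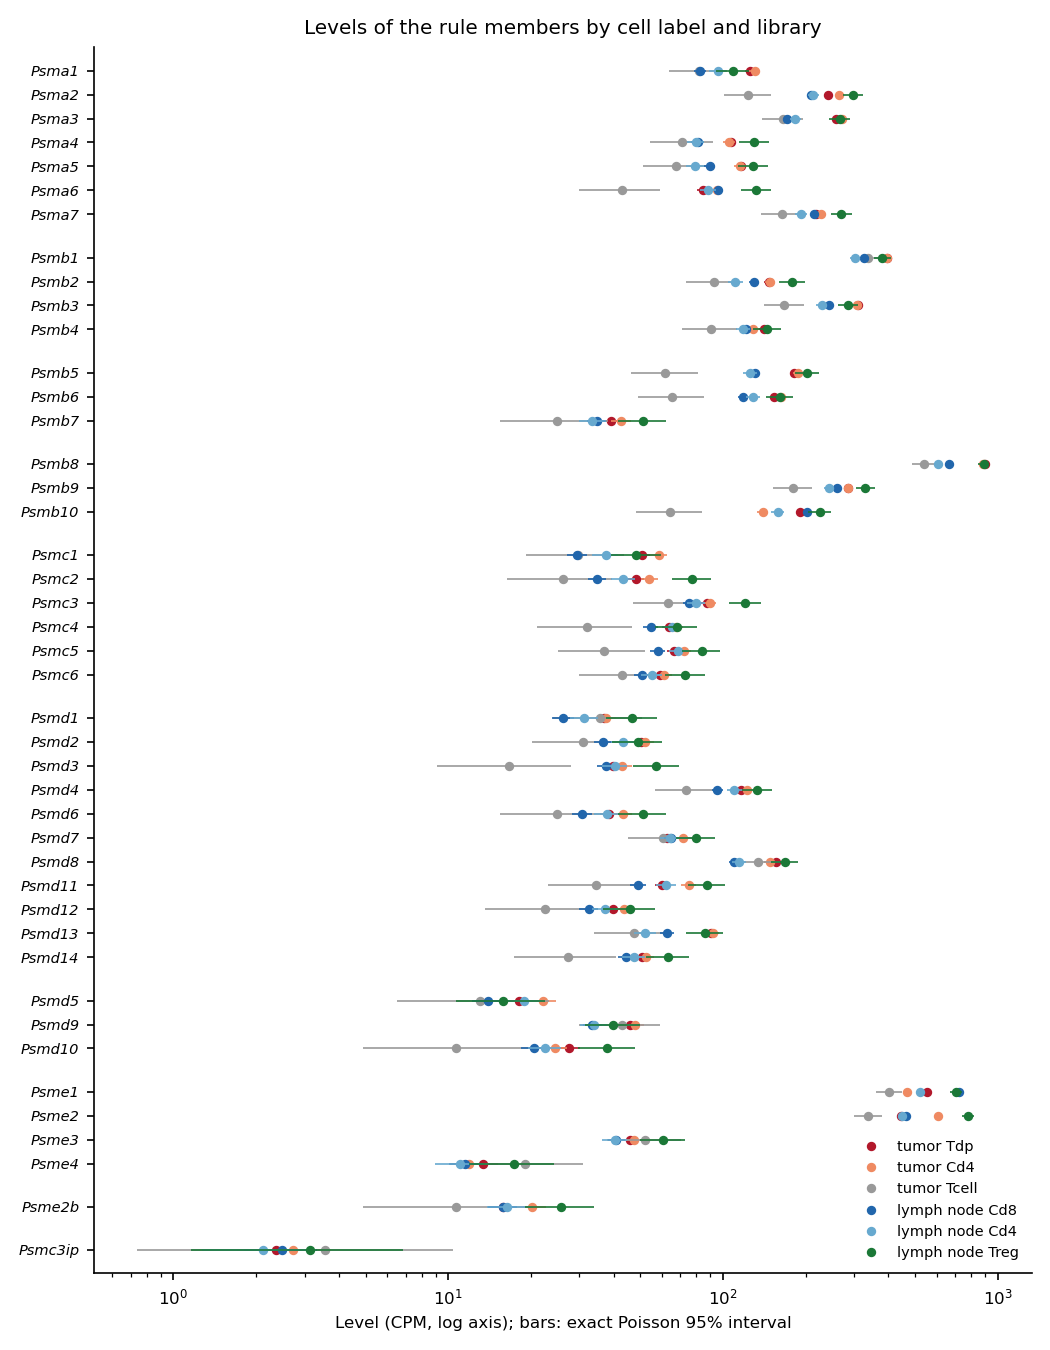
Level of each of the 43 genes in CPM (log axis), grouped by role, with 1 colour per cell label and library and bars for the exact Poisson 95% interval. Grey Tcell points lie lowest for 34 of the 41 genes, and Psme1 and Psme2 order the other groups differently.

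The alpha ring, which gates the core, summed to 1149 CPM in tumor Tdp, 1209 in tumor Cd4, 942 in lymph node Cd8, 931 in lymph node Cd4 and 1332 in lymph node Treg cells. The cap ATPases summed to 375, 402, 302, 349 and 470 CPM in the same order. Other cap subunits, among them the ubiquitin receptor Psmd4 and the deubiquitinase Psmd14, summed to 741, 780, 589, 640 and 867 CPM. All 3 sums were highest in lymph node Treg cells among these 5 groups. In lymph node, Cd8 cells were below Cd4 cells for both cap sums and above them for the alpha ring, where the intervals overlap (928 to 956 and 911 to 951 CPM).

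The immunoproteasome genes differed in how they ordered the groups. Psmb8 was at 897 CPM in tumor Tdp, 886 in tumor Cd4, 537 in Tcell, 666 in lymph node Cd8, 607 in lymph node Cd4 and 888 in lymph node Treg cells, so both large tumor groups and Treg cells were at one height and the other lymph node cells lower. Psmb9 was at 284, 285, 179, 261, 244 and 329 CPM in the same order. Psmb10 was at 191, 139, 64.1, 203, 158 and 225 CPM. It was therefore higher in the CD8-bearing group than in the Cd4 group of both tissues. Of the constitutive genes, Psmb5 was at 182, 187, 61.7, 131, 125 and 202 CPM, Psmb6 at 153, 163, 65.3, 119, 128 and 161 CPM and Psmb7 at 39.1, 42.5, 24.9, 34.8, 33.5 and 50.9 CPM. All 3 constitutive genes were higher in tumor Tdp than in lymph node Cd8 cells and in tumor than in lymph node Cd4 cells, except that Psmb7 turned to a log2 ratio of -0.15 between Tdp and Cd8 cells on the total without ribosomal protein, mitochondrial and receptor genes.

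Shares within the catalytic genes do not depend on how a library is scaled. They are read here only across groups, since UMIs of different genes are not scaled to length. Psmb8, Psmb9 and Psmb10 took 78.6% of the UMIs of all 6 catalytic genes in tumor Tdp cells, 77.0% in tumor Cd4, 79.9% in lymph node Cd8, 77.8% in lymph node Cd4 and 77.7% in lymph node Treg cells. The range over these 5 groups was thus small. Tdp cells were 1.62 percentage points above tumor Cd4 cells (interval 0.916 to 2.32) and lymph node Cd8 cells 2.04 points above lymph node Cd4 cells (1.14 to 2.95). Tumor and lymph node Cd4 cells differed by -0.884 points (-1.81 to 0.0489), which counting error covers. Tcell cells stood at 83.7%, which was 6.76 points above tumor Cd4 cells (3.94 to 9.33). Both kinds of gene were low in them, the constitutive ones more so in sum, though not in each pair. In Tcell cells Psmb10 made up 72.0% of the Psmb10 and Psmb7 UMIs, against 76.6% in tumor Cd4 cells. That difference was -4.60 points (-16.3 to 5.31), which counting error covers. With cells thinned to equal depth, the differences were 3.35 points between lymph node Cd8 and Cd4 cells, 0.175 points between the Cd4 groups and 3.09 points between lymph node Treg and Cd4 cells, where all UMIs gave -0.157 points (-1.75 to 1.41).

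By pairs, Psmb10 had the widest difference between CD8-bearing and Cd4 cells in tumor. In lymph node the differences of Psmb9 and Psmb10 were close, with overlapping intervals. Psmb10 made up 83.02% of Psmb10 and Psmb7 UMIs in Tdp cells and 76.6% in tumor Cd4 cells, a difference of 6.42 points (4.41 to 8.46). In lymph node it made up 85.4% in Cd8 and 82.5% in Cd4 cells, a difference of 2.86 points (0.779 to 5.005). Psmb9 with Psmb6 gave 1.32 points in tumor (-0.274 to 2.92) and 3.24 points in lymph node (1.28 to 5.21). Psmb8 with Psmb5 gave 0.569 points (-0.235 to 1.38) and 0.662 points (-0.430 to 1.77), both within counting error.

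The PA28 genes moved apart. Psme1 was at 552 CPM in tumor Tdp cells, 466 in tumor Cd4, 402 in Tcell, 723 in lymph node Cd8, 520 in lymph node Cd4 and 705 in lymph node Treg cells. Psme2, which encodes the partner subunit of the same ring, was at 444, 607, 338, 465, 448 and 779 CPM in the same order. Tumor Cd4 cells thus held less Psme1 and more Psme2 than tumor Tdp cells. The 19 tumor Treg cells held 698 CPM of Psme1 (535 to 895) and 1250 CPM of Psme2 (1028 to 1505).

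As a share of the pair's UMIs, a measure chosen after the values were seen, Psme1 made up 55.4% in tumor Tdp, 43.4% in tumor Cd4, 54.3% in Tcell, 60.9% in lymph node Cd8, 53.8% in lymph node Cd4 and 47.5% in lymph node Treg cells. It made up 35.8% in tumor Treg cells. Tdp cells were 12.01 points above tumor Cd4 cells (10.9 to 13.1), and lymph node Cd8 cells 7.11 points above lymph node Cd4 cells (5.87 to 8.35). Tumor Cd4 cells differed from lymph node Cd4 cells by -10.3 points (-11.7 to -9.01), and tumor Tdp from lymph node Cd8 cells by -5.44 points (-6.42 to -4.47). Lymph node Treg cells differed from lymph node Cd4 cells by -6.25 points (-8.38 to -4.11).

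**Figure D3:**
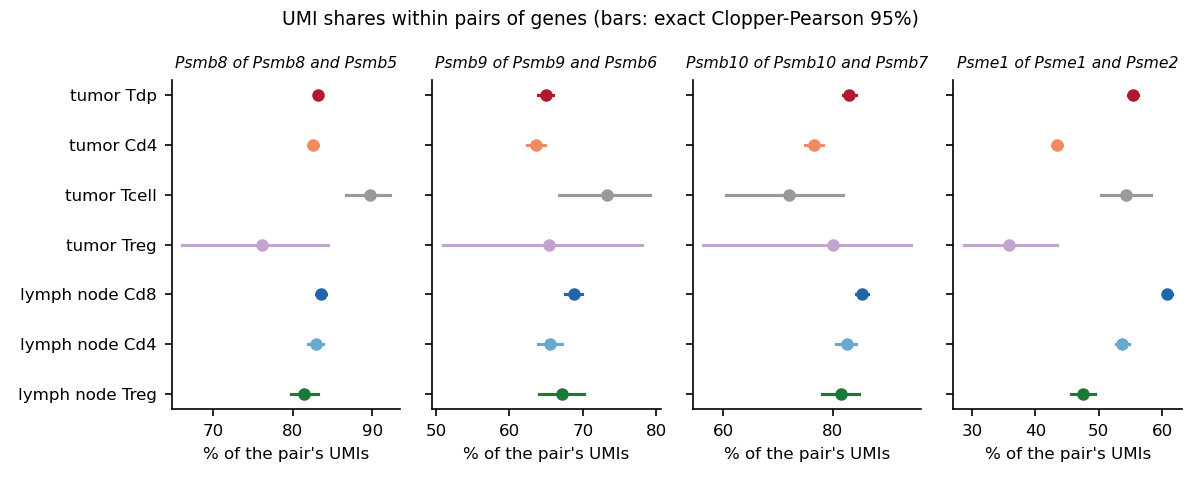
Share of the first gene in the UMIs of 4 gene pairs, in percent on axes that do not start at 0, for 7 groups of cells, with exact Clopper-Pearson 95% bars. Psme1 of Psme1 and Psme2 spreads from 35.8% in tumor Treg to 60.9% in lymph node Cd8 cells, while Psmb8 of Psmb8 and Psmb5 stays close in the 5 largest groups.

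Coreceptor UMIs, taken in place of the labels after the data were seen, gave a like order. In tumor, Psme1 made up 42.9% of the pair in 2044 cells with Cd4 UMIs only, 54.6% in 2334 cells with UMIs of Cd4 and a CD8 gene, 56.1% in 694 cells with CD8 UMIs only and 46.3% in 498 cells with neither. In lymph node the shares were 52.1%, 55.5%, 60.7% and 52.7%. Cells with CD8 UMIs were above those with Cd4 alone in both tissues. In lymph node the intervals overlap between cells with both (53.0% to 58.0%) and those with Cd4 alone (50.8% to 53.4%). Psmb10 itself was at 140 CPM in tumor cells with Cd4 alone, 186 with both and 180 with CD8 alone, and at 164, 181 and 205 CPM in lymph node. Its share of the Psmb10 and Psmb7 UMIs was 77.4%, 82.3% and 82.4% in tumor and 81.6%, 80.7% and 85.9% in lymph node, so the 190 lymph node cells with both were not above those with Cd4 alone on this measure, with overlapping intervals. These classes miss coreceptor RNA in shallow cells, and the cells with neither had a median of 3969.5 UMIs in tumor, the lowest of the 4 classes.

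**Figure D4:**
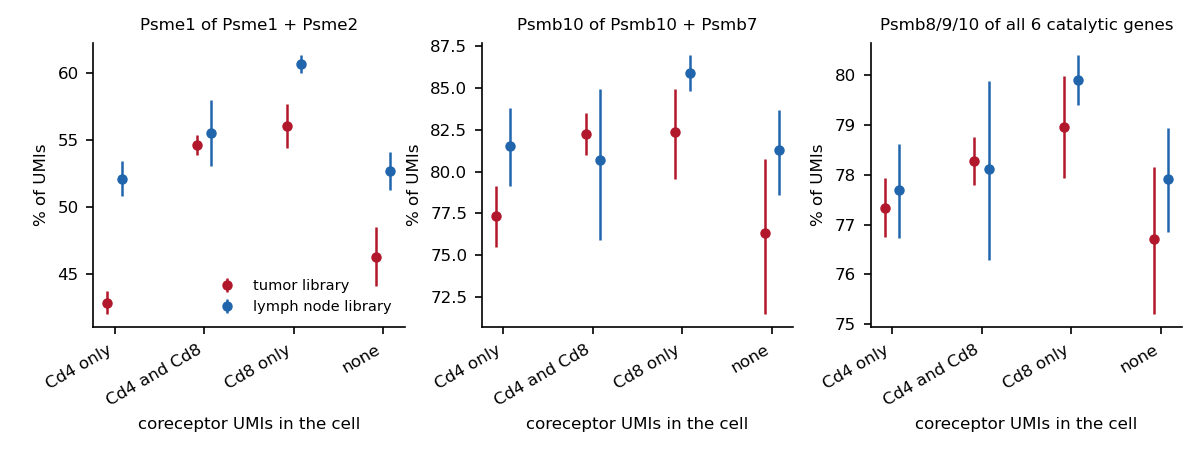
Psme1 share of the Psme1 and Psme2 UMIs, Psmb10 share of the Psmb10 and Psmb7 UMIs and immunoproteasome share of the catalytic UMIs, in percent on axes that do not start at 0, by coreceptor UMIs in the cell, with Clopper-Pearson 95% bars. In tumor the Psme1 share is 42.9% with Cd4 alone and 54.6% to 56.1% wherever CD8 UMIs are present.

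For each pair of groups, ratios were taken as the log2 ratio of CPM plus 1. Genes with at least 20 CPM in 1 or both groups were counted, and a ratio of 1.5-fold or more in either direction was a call. The comparison of tumor Tdp with tumor Cd4 cells asks what sets the CD8-bearing cells apart. No proteasome gene was called in it, 0 of 41 counted in either direction, where 2.84% of all 4820 counted genes were higher and 6.47% lower. With TMM scaling, which shifts all ratios by 0.12, these shares were 3.96% and 4.44%. The median log2 ratio of the 41 was -0.06 beside -0.11 over all counted genes, and their middle 50% spanned 0.13 beside 0.29. The highest ratios were those of Psmb10 (0.45, interval 0.38 to 0.54), Psme1 (0.24, 0.20 to 0.29), Psmd10 (0.17, -0.03 to 0.38), an assembly chaperone of the cap also known as gankyrin, and Psmb4 (0.13, 0.04 to 0.22), of the beta ring. Psme2 had the lowest (-0.45, -0.50 to -0.41), ahead of Psme2b (-0.33), Psmd11 of the cap (-0.31, -0.44 to -0.20) and the chaperone Psmd5 (-0.28, -0.52 to -0.06). Psmb8 and Psmb9 were at 0.02 and -0.00, and Psmb5, Psmb6 and Psmb7 at -0.04, -0.09 and -0.12. Psme3 was at -0.04. Of all 41 ratios 9 were above 0, but 28 were with TMM scaling. All 6 cap ATPases were below 0, as were 70.1% of all counted genes, from -0.20 for Psmc1 to -0.03 for Psmc3, and 3 of the 6 were with TMM. Type I interferon response genes were higher in the same cells, 6 of 9 counted (Ifit1, 42.97 against 17.7 CPM), and their part in the proteasome values was not tested.

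**Figure D5:**
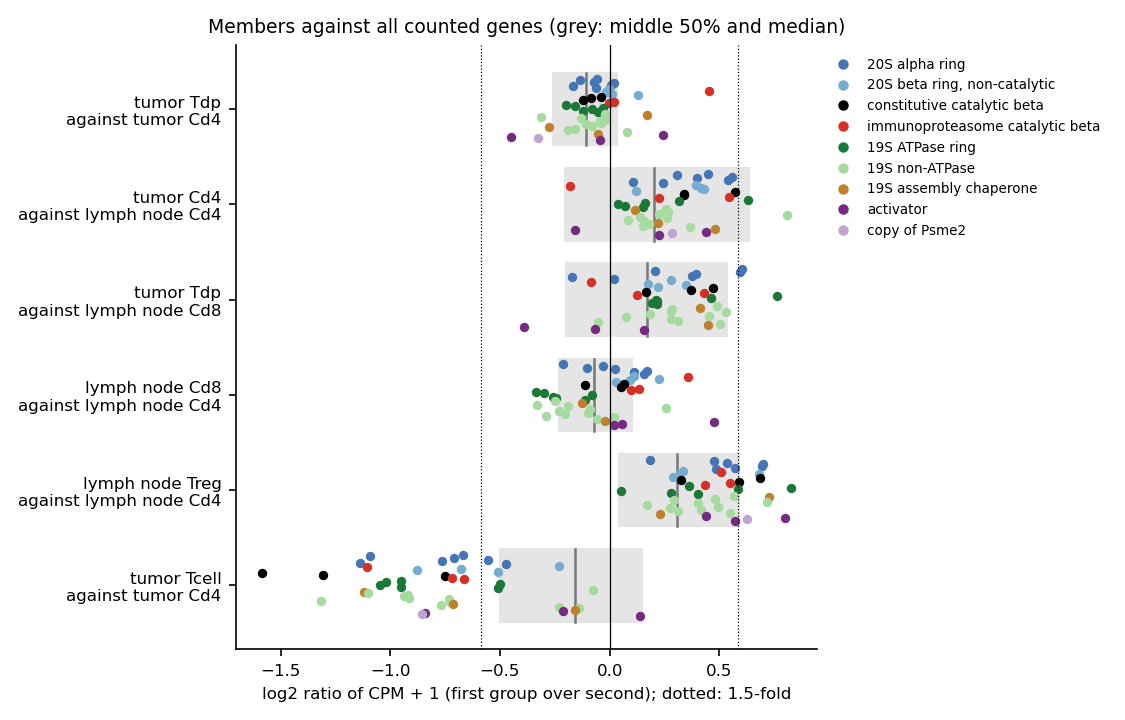
log2 ratio of CPM plus 1 of every counted proteasome gene, coloured by role, in 6 comparisons, over the middle 50% and median of all counted genes in grey, with dotted lines at 1.5-fold. Only Tcell against tumor Cd4 cells puts most points (29 of 41) beyond a dotted line.

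Tumor Cd4 against lymph node Cd4 cells gave ratios above 0 for 39 of 41 counted genes, beside 63.8% of all genes, but few past the fold. Psmd13, a cap subunit, was at 91.8 CPM against 52.0 (log2 ratio 0.81, interval 0.67 to 0.97) and Psmc1, an ATPase, at 58.4 against 37.4 (0.63, 0.46 to 0.83). These 2 were called higher and 0 lower, where 27.5% of all 5134 counted genes were higher and 12.5% lower. The median was 0.26 beside 0.20 over all genes, and the share of proteasome genes called was below that of all genes. Next came Psmb5 (0.57), Psma3 of the alpha ring (0.56) and Psmb8 (0.54), with Psme2 at 0.44, Psmb6 and Psmb7 at 0.34, and Psmb9 and Psme3 at 0.22. Psmb10 (-0.18, -0.28 to -0.08) and Psme1 (-0.16, -0.21 to -0.10) were lowest, followed by the ATPases Psmc4 (0.04) and Psmc5 (0.07). With ribosomal protein, mitochondrial and receptor genes out of the total, 0 proteasome genes were called, 17 of 42 counted were above 0, the median was -0.05 beside -0.17 over all genes, and 15.5% of all genes were higher and 24.6% lower.

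Tumor Tdp against lymph node Cd8 cells, which compares the CD8-bearing groups, also gave few calls, with Psmc1 the 1 gene called in both. Psmc1 (50.6 against 29.4 CPM, log2 ratio 0.76, 0.63 to 0.94), Psma1 (125 against 82.2 CPM, 0.60, 0.51 to 0.70) and Psma3 (258 against 171 CPM, 0.59, 0.53 to 0.66), the latter pair of the alpha ring, were called higher. That is 3 of 39 counted and 0 lower, where 23% of all 4837 counted genes were higher and 11.2% lower. Psmd13 was just short of the fold at 0.53. The median was 0.28 beside 0.17 over all genes. Psme1 was lowest at -0.39 (-0.43 to -0.35), with Psma6 of the alpha ring at -0.17, Psmb10 at -0.09 and Psme2 at -0.07. Psmb5, Psmb8 and Psmb6 were at 0.47, 0.43 and 0.37, and Psmb7, Psme3 and Psmb9 at 0.16, 0.16 and 0.12. Without the ribosomal protein, mitochondrial and receptor genes in the total 0 were higher and 1 lower, 18 of 42 counted were above 0, and all genes split into 11.6% higher and 24.1% lower. Both comparisons across tissues share no cells, but each rests on the same pair of libraries. Pooled over labels, tumor against lymph node gave 1 of 39 counted genes higher (Psmc1, 53.4 against 33.1 CPM, 0.67) and 0 lower, where 22.5% of 4975 genes were higher and 11.1% lower. On the reduced total 0 of 42 counted proteasome genes were higher and 1 was lower, so the Psmc1 call did not hold. There 16 of the 42 were above 0, and the background became 12.5% higher and 22.5% lower.

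Lymph node Cd8 against lymph node Cd4 cells gave ratios on both sides of 0. No proteasome gene was called, 0 of 39 counted, where 4.24% of all 4530 counted genes were higher and 4.55% lower (4.99% and 3.60% with TMM scaling). All 6 cap ATPases (-0.33 for Psmc1 to -0.08 for Psmc3) and 9 of the 11 other cap subunits were below 0, while all 4 non-catalytic beta genes and all 3 immunoproteasome genes were above it. Of all counted genes 61.1% were below 0, with a median of -0.07, and no test of roles was run. These counts held on the reduced total, and with TMM, which adds 0.07 to each ratio, they held but for 8 of the 11 other cap subunits below 0. Psme1 was highest (0.47, 0.43 to 0.52), with Psmb10 (0.36, 0.27 to 0.45), Psmd13 (0.26) and Psmb2 of the beta ring (0.22) next. Psmc1, Psmd11 (-0.33), Psmc2 (-0.30) and Psmd6 (-0.29), all of the cap, were lowest. Psmb8 was at 0.13, Psmb9 at 0.10, Psmb5 at 0.06, Psmb7 at 0.05, Psmb6 at -0.11, Psme2 at 0.05 and Psme3 at 0.02. With classes drawn from coreceptor UMIs Psmb9 was at -0.03 and Psme2 at -0.09. The same pair, Psmb10 and Psme1, led the tumor comparison of Tdp with Cd4 cells, which uses other cells and another library.

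Lymph node Treg against lymph node Cd4 cells put all 40 counted genes above 0, as were 77.7% of all genes. Of these 40, 11 were called higher (10 of 39 without Psme2b) and 0 lower, where 25.5% of all 5185 counted genes were higher and 3.84% lower, so the count was close to the background. Psmc2 was at 77.2 CPM against 43.1 (log2 ratio 0.83, 0.56 to 1.12) and Psme2 at 779 against 448 (0.80, 0.71 to 0.89), ahead of Psmd10 (0.73, 0.34 to 1.15) and Psmd13 (0.72, 0.46 to 0.99). Also called were Psma4 (0.70), Psma5 (0.69), Psmb5 (0.69), Psmb2 (0.68), Psme2b (0.62), Psmb7 (0.59) and Psmc3 (0.59). Psmb8 was at 0.55, Psmb10 at 0.51, Psmb9 at 0.43, Psmb6 at 0.33, Psme3 at 0.57 and Psme1 at 0.44. The lowest were Psmc4 (0.05), Psmd2 (0.17), Psma1 (0.19) and Psmd9 (0.23). The median was 0.48 beside 0.31 over all genes. The calls did not hold on other scalings, where 28 of 40 (TMM) and 34 of 42 (reduced total) ratios were above 0 and 0 genes were called both with TMM (median 0.14, -0.03 over all genes) and without ribosomal protein, mitochondrial and receptor genes (median 0.19, 0.00 over all genes). The background then split into 12.1% higher and 11.1% lower, and into 13.5% and 10.9%. B cell markers were at 454 CPM in the Treg and 233 CPM in the Cd4 cells, 177 of the 321 Treg cells held marker UMIs of B, myeloid or melanoma cells, and the part of these cells in the result was not tested beyond leaving them out.

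Tumor Tcell against tumor Cd4 cells gave the widest difference. Of 41 counted genes 29 were called lower (28 of 40 without Psme2b) and 0 higher, where 20.1% of all 5030 counted genes were lower and 5.25% higher. The median was -0.75 beside -0.16 over all genes, and 38 of the 41 ratios were below the median of all genes. Psmb5 was at 61.7 CPM against 187 (-1.58, -2.02 to -1.20), Psmd3 of the cap at 16.6 against 42.9 (-1.32, -2.25 to -0.61), Psmb6 at 65.3 against 163 (-1.31, -1.73 to -0.93) and Psma6 at 42.7 against 95.1 (-1.14, -1.67 to -0.68). All 6 catalytic genes were called lower and stayed below 0 with TMM and on the reduced total, with Psmb10 at -1.11, Psmb7 at -0.75, Psmb8 at -0.72 and Psmb9 at -0.67. So were 5 of 7 alpha ring genes, 4 of 6 ATPases and 8 of 11 other cap genes. Psme2 was at -0.84, whereas Psme1 was at -0.21 (-0.37 to -0.05). The highest were Psme3 (0.14, -0.33 to 0.58), Psmd1 (-0.07), Psmd8 (-0.14) and Psmd9 (-0.16), which were not called. Leaving out ribosomal protein, mitochondrial and receptor genes changed the background to 10.4% higher and 15.6% lower and left 26 proteasome genes lower and 1 higher. The Tcell group also had the fewest UMIs per cell and a median of 3.1% mitochondrial UMIs against 2.03% in tumor Cd4 cells. That median was 3.14% in lymph node Cd8 and 2.95% in lymph node Cd4 cells. The part of RNA quality in the difference was not tested.

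Of the members never counted, Psme4 was at 11.0 to 18.98 CPM in the 6 groups and Psmc3ip at 2.11 to 3.56 CPM. Psmd5, at 13.1 to 22.1 CPM, and Psme2b, at 10.7 to 25.7 CPM, passed the minimum in only some comparisons. Every gene matching the rule had UMIs in both libraries.

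Genes that act with the proteasome were followed in 9 lists of 85 genes, 81 of them in the table. Of 12 peptide loading and class I genes, 6 were called higher in tumor Cd4 against lymph node Cd4 cells (Tap1, 157 against 105 CPM, not called, and Tapbpl, 62.6 against 32.6 CPM, called) and 8 in lymph node Treg against Cd4 cells (Tap1, 205 against 105 CPM). None of the 12 were called in Tdp against tumor Cd4 cells, though Tapbpl, a tapasin relative, was at 88.4 against 62.6 CPM. In lymph node Cd8 against Cd4 cells Tapbpl was the 1 gene of the list called, at 55.6 against 32.6 CPM. Their medians were 0.58, 0.63, -0.05 and 0.07 in that order. Tdp against lymph node Cd8 cells had 5 of 12 higher, with the class I gene H2-D1 at 3086 against 1450.4 CPM. Of all counted genes 27.5%, 25.5% and 23% were higher in the comparisons of tumor with lymph node Cd4 cells, Treg with Cd4 cells and Tdp with lymph node Cd8 cells. With TMM 4, 2 and 4 genes of the list were higher there, and on the reduced total 2, 2 and 1, the Treg pair being Tap1 and Tapbpl on both scalings. Tapbpl was called higher in Tdp against tumor Cd4 cells with TMM.

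Assembly factors differed among themselves. Psmg1, a chaperone that starts the alpha ring, was at 11.7 CPM in tumor Cd4 and 27.2 in lymph node Cd4 cells, and at 7.89 in Tdp and 21.9 in lymph node Cd8 cells, and was called lower in both. Pomp, which guides beta subunits into the core, was at 231 and 191 CPM in tumor and lymph node Cd4 cells and at 325 CPM in lymph node Treg cells. Nfe2l2, a stress regulator able to raise proteasome genes, was at 13.4 against 59.4 CPM in tumor and lymph node Cd4 cells. Psmf1, a proteasome inhibitor, was at 27.7 CPM in Tdp, 37.5 in tumor Cd4 and 16.6 in Tcell cells. Vcp, the p97 ATPase that extracts tagged proteins, was at 166 CPM in lymph node Treg against 90.8 in lymph node Cd4 cells and was called higher, but not with TMM or on the reduced total.

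The ubiquitin genes split in Tcell cells. Ubb was at 1587 CPM against 3761 in tumor Cd4 cells, and the ubiquitin-activating enzyme gene Uba1 at 27.3 against 77.3 CPM. Rps27a, which encodes ubiquitin fused to a ribosomal protein, was at 5243 against 4009 CPM. Of the 5 counted genes of this list 3 were called lower and 0 higher, and of the p97 list 4 of 5 were lower. Among all genes 20.1% were lower. Among shuttles and deubiquitinases 2 of 7 were lower, and 0 with TMM or on the reduced total, with Usp14, a deubiquitinase of the cap, at 17.8 against 28.4 CPM.

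Interferon gamma genes were followed because interferon induces the immunoproteasome. Ifng itself was at 347 CPM in tumor Cd4 and 284 in Tdp cells, 1.22 in lymph node Cd4, 12.7 in lymph node Cd8 and 25.2 in lymph node Treg cells. Ifngr2 is listed at 0 in all tumor groups, so no fold is given for it there and it is left out of the tumor count. In the tumor library 1768 genes are listed at 0 UMIs. Those that pass the level minimum in lymph node cells stay in the shares over all genes. The list had 5 of 13 higher and 3 lower in tumor against lymph node Cd4 cells, where all genes had 27.5% and 12.5%, and 8 of 15 higher and 1 lower in lymph node Treg against Cd4 cells, where all genes had 25.5% and 3.84%. With TMM 6 of the 15 were higher. Type I interferon genes ran the other way between the Cd4 groups, with 0 of 7 higher and 5 lower in tumor (Ifit1, 17.7 against 71.3 CPM). Whether interferon genes and proteasome values are linked was not tested in these comparisons.

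Within a group, cells were also divided by UMIs of the type I interferon list, which holds no proteasome gene, at 2 or more UMIs per thinned cell. In Tdp cells the proteasome share was 0.650% in 751 interferon-responding cells (0.637% to 0.663%) and 0.593% in 1912 others (0.585% to 0.601%). In lymph node Cd8 cells it was 0.562% in 1086 responding and 0.512% in 1676 other cells, and in lymph node Cd4 cells 0.534% in 660 and 0.477% in 1151 cells. Lymph node Treg cells had 0.759% in 135 and 0.690% in 174 cells. Tcell cells had 0.456% in 44 responding cells (0.412% to 0.502%) and 0.357% in 170 others (0.337% to 0.377%). The tumor Cd4 cells had the narrowest gap, with 0.637% in 538 cells (0.622% to 0.652%) and 0.622% in 1880 cells (0.614% to 0.630%), where the intervals overlap. Responding cells also had a higher immunoproteasome share in Tdp (81.2% against 77.9%), lymph node Cd8 (82.3% against 78.0%) and lymph node Cd4 cells (78.7% against 75.1%). The intervals overlapped in tumor Cd4 (77.9% against 76.4%), lymph node Treg (81.0% against 78.5%) and Tcell cells, where the responding cells had the lower value (84.6% against 86.1%). The Psme1 share of the PA28 pair did not follow this division, at 55.4% against 56.1% in Tdp and 42.0% against 43.2% in tumor Cd4 cells. This division was made after the data were seen. Cycling cells were too few to describe outside tumor Cd4 cells, where 31 cycling cells held 0.639% (0.578% to 0.705%) and the other 2387 held 0.625%.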

How the data were processed

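Single T cells of 2 RNA libraries, 1 per tissue, were analysed. The authors deposited raw UMI counts per gene and cell in a single table, and a second deposited table of other values gives each cell's library and label. The submitters' processing notes name Cell Ranger 3.1.0 and mm10. The filters on cells and the rule for labels: not given in the sources used here. The 2 receptor libraries were used only through the deposited receptor sequences.

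Counts were summed per label and library and scaled to CPM with Python 3.11.15, numpy 2.4.6, scipy 1.17.1 and pandas 2.3.3. Ratios used a pseudocount of 1 CPM. Intervals are exact conditional Poisson for ratios and Clopper-Pearson for shares. With 1 library per tissue no p-value was computed, and cells were not used as replicates. Scripts were tested on simulated data. Depth was 33147030 UMIs in the tumor library and 29067001 in the lymph node library. No doublet caller was run, but an alternative leaves out cells above the 98th percentile of UMIs, and free RNA was not estimated.

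The members, lists and comparisons were chosen with earlier results of these data known. Genes named in each comparison are the 6 catalytic genes, the activators and the 4 highest and 4 lowest ratios, with first, highest or lowest list genes as examples. Other genes (such as those beyond the 4, Psma6 or Ifng across groups) were named after their values were seen. Alternatives were TMM (edgeR 4.0.16), a reduced total (no ribosomal protein, mitochondrial or receptor genes), CPM averaged over cells, thinning to 2000 UMIs, no or a 50 CPM minimum, a pseudocount of 10, 2-fold calls, other cell sets and classes from UMIs. Scalings of the list counts, and leaving out list genes listed at 0, were added after the data were seen.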

Additional observations from a re-analysis of the deposited data

Results flagged for a closer look

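Psme2 stood on opposite sides of 0 in the same kind of contrast in the 2 tissues. It was at a log2 ratio of -0.45 (interval -0.50 to -0.41) in tumor Tdp against tumor Cd4 cells and at 0.05 (0.00 to 0.11) in lymph node Cd8 against lymph node Cd4 cells, a difference of -0.51. The difference was not tested, since each tissue has 1 library, and the lymph node value was -0.09 with classes drawn from coreceptor UMIs. Tdp and Cd8 are different labels, and receptor origin differs between the tissues as well.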

How the results depend on the processing

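No paired analysis was possible because each tissue has 1 library. Of 87 counts of called genes under an alternative, 69 were within 1.5 times the count reported. These counts take both directions together, and counts of 0 that stayed 0 are among the 69. Of 33 immunoproteasome share differences, 29 moved within their interval. The cause of the changes was not tested. For tumor against lymph node Cd4 cells (2 called) the counts were 1 with TMM, thinning and a pseudocount of 10, and 0 on the reduced total and at 2-fold. For Tdp against lymph node Cd8 cells (3) they were 1 with TMM, on the reduced total (1 lower) and with a pseudocount of 10, and 0 at 2-fold. For lymph node Treg cells (11) they were 0 with TMM, on the reduced total and at 2-fold, and 7 with a pseudocount of 10. For Tcell cells (29) 10 were called at 2-fold. For the libraries (1) 2 were called after thinning and without cells with B cell, myeloid or melanoma markers, and 0 with a pseudocount of 10 and at 2-fold. On the reduced total the 1 gene called between the libraries was lower instead of higher. The immunoproteasome share after thinning differed by 0.175 points between tumor and lymph node Cd4 cells, 3.35 between lymph node Cd8 and Cd4 cells and 3.09 between lymph node Treg and Cd4 cells, where leaving out marker cells gave -2.83. Of 918 single ratios of the named genes 783 moved within their interval and 54 changed sign, of which 40 had an interval that spans 0 and 14 had one on a single side of it. The 14 follow. With TMM Psmb6 was at 0.0315 in Tdp against tumor Cd4 and at -0.0129 in lymph node Treg cells, and after thinning Psmb4 was at -0.000260 in Tdp against tumor Cd4 cells. On the reduced total Psmb9 and Psme3 were at -0.0934 and -0.0890 in tumor against lymph node Cd4 cells, Psmb7, Psmb9 and Psme3 at -0.15, -0.19 and -0.15 in Tdp against lymph node Cd8 cells, and Psmb7, Psmb9, Psme2 and Psme3 at -0.11, -0.18, -0.20 and -0.15 between the libraries. With UMI classes Psmb9 was at -0.0263 and Psme2 at -0.0890 in lymph node Cd8 against Cd4 cells. The Psme1 share difference of Tdp and tumor Cd4 cells ran from 11.8 to 13.0 points over all alternatives. The Tcell (842897 UMIs) and tumor Treg (88799 UMIs) groups are the shallowest, and their intervals are the widest.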
